A study of Mus musculus with 13 samples.

Results

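The miR-106b-25 and miR-106a-363 clusters are the 2 mouse paralogs of the cluster in Mir17hg, the transcript that holds miR-17, miR-18a, miR-19a, miR-20a, miR-19b-1 and miR-92a-1. From them, 6 mature miRNAs were followed across 13 primary abdominal neuroblastomas. The members were taken by name from the array: mmu-miR-106b-5p, mmu-miR-106b-3p, mmu-miR-93-5p and mmu-miR-25-3p of miR-106b-25, and mmu-miR-20b-5p and mmu-miR-18b-3p of miR-106a-363, written without the species prefix from here on. They are 6 of the 1079 mouse miRNAs read by each array. The series title names TH-MYCN mice, in which the tyrosine hydroxylase promoter drives MYCN in the sympathetic lineage. The design text calls the tumours spontaneous and the mice wild type and transgenic, without saying which transgene each animal carried. Of the 13 tumours, 6 had wild-type caspase-8 and had not spread to the bone marrow, and 7 were deficient in caspase-8, a protease that starts apoptosis downstream of death receptors, and had bone marrow metastasis. Genotype and metastasis therefore cannot be told apart. The labels do not state how caspase-8 was removed, how old the mice were or whether they were treated. The labels call the tumours biological replicates, and each was hybridised to 1 Agilent miRNA array of 1 colour.

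A microRNA is cut from a hairpin that has a 5′ arm (5p) and a 3′ arm (3p). The arm that is kept, the guide, pairs with messenger RNAs mainly through its seed, bases 2 to 8, and lowers their translation and stability. The hairpins of miR-106b-25 lie in an intron of Mcm7, a gene of the DNA replication helicase that is transcribed in dividing cells and is a target of E2F and MYC proteins. miR-106b and miR-93 are known as repressors of the cell cycle inhibitor p21, and miR-25 as a repressor of the pro-apoptotic protein Bim. In neuroblastoma, MYCN is known to raise transcription of Mir17hg and of its paralogs.

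All 6 members matched a mature sequence of RefSeq (GRCm38.p6). They are shown because shared seeds decide which miRNAs can pair with the same targets, and because close sequences bear on what a probe can tell apart. Capitals mark the seed.
miR-106b-5p: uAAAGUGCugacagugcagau
miR-93-5p: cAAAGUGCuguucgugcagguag
miR-20b-5p: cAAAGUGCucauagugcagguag
miR-20a-5p: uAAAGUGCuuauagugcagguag
miR-17-5p: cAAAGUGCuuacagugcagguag
miR-106a-5p: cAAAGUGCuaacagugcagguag
miR-25-3p: cAUUGCACuugucucggucuga
miR-92a-3p: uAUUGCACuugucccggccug
miR-106b-3p: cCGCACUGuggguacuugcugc
miR-18b-3p: uACUGCCCuaaaugccccuucu

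miR-106b-5p, miR-93-5p and miR-20b-5p carry the seed AAAGUGC together with miR-20a-5p and miR-17-5p of the Mir17hg cluster and with miR-106a-5p. miR-25-3p carries AUUGCAC together with miR-92a-3p. miR-106b-3p and miR-18b-3p each have a seed that no other mouse miRNA on the array with a RefSeq sequence had. miR-20b-5p differs from miR-20a-5p at 2 of 23 bases, C1U and C10U, counted from the 5′ end with the base of miR-20b-5p first. It also differs at 2 bases from miR-17-5p, at C10U and U12C. Against miR-93-5p it has 3 substitutions, and against the shorter miR-106b-5p an edit distance of 6. The probe sequences were not used here, so how far a probe for miR-20b-5p also read miR-20a-5p or miR-17-5p was not tested.

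In RefSeq (GRCm38.p6) the miR-106b-25 hairpins span chr5:138165321-138165818 on the minus strand, 498 bases with miR-106b first, then miR-93 and miR-25. The miR-106a-363 hairpins span chrX:52741693-52742567 on the minus strand, 875 bases in the order miR-106a, miR-18b, miR-20b, miR-19b-2, miR-92a-2 and miR-363. The array reads miRNAs by name, so these positions were used only for order. The mature miR-19b-3p and miR-92a-3p are made from both miR-106a-363 and Mir17hg, with the same sequence, and are treated here with the latter.

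Levels are log2 scaled intensities: the summed signal of the probes of a miRNA, divided by the 75th percentile of its array and put on a common scale. Probes differ in brightness, so levels were compared between tumours and not between miRNAs. Arrays detected 338 to 469 mouse miRNAs, and their 75th percentile over the 294 miRNAs detected everywhere ran from 851 to 1929 intensity units. Precision is limited by how many arrays there were. For the 419 miRNAs tested, which at least 6 arrays had detected, a 95% interval for a group difference reached a median of 0.63 log2 units to either side. All 6 members passed that filter.

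The arrays lay on 2 slides. Slide 1 held wild-type replicates 1 and 2 and deficient replicates 2, 3, 5, 6 and 7, and slide 2 held the other tumours, so that slide and group are partly confounded. All 5 neural miRNAs taken as tissue markers, among them miR-9-5p, miR-124-3p and miR-375-3p, were detected in all 13 tumours. The liver marker miR-122-5p was at most 17.5 scaled units. Markers of other cell types overlapped between the groups, with the 2 erythroid miRNAs summing to 4988 to 69047 scaled units in wild-type and 19934 to 83502 in deficient tumours. The sum of the 4 vessel miRNAs was 1718 to 3171 and 1355 to 4896, that of the 5 leukocyte miRNAs 651 to 4691 and 817 to 4063, and that of the 4 skeletal muscle miRNAs 163 to 3588 and 88.7 to 8994. The summed mesenchymal markers were 646 to 1594 and 494 to 1345, and the kidney markers 30.3 to 94.2 and 36.0 to 84.8. Their part in the levels below was not tested, and in these bulk tumours fewer cells of a type and less RNA per cell cannot be told apart.

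Which arms of the 2 clusters were found differed. From miR-106b-25, miR-106b-5p, miR-106b-3p, miR-93-5p and miR-25-3p were detected in 13 of 13 tumours, while miR-93-3p and miR-25-5p were detected in 0. From miR-106a-363, miR-20b-5p was detected in 13 tumours and miR-18b-3p in 7, 2 wild-type and 5 deficient. The detection mark of miR-18b-3p did not follow its level. It was marked at 29.72 deposited units in deficient replicate 1 but not at 31.65 in deficient replicate 2. miR-18b-5p, the partner arm of miR-18b-3p, was detected in 1 tumour, deficient replicate 4, at 50.1 deposited intensity units. The other 6 arms of that cluster on the array, miR-106a-3p, miR-20b-3p, miR-19b-2-5p, miR-92a-2-5p, miR-363-5p and miR-363-3p, were detected in 0 tumours. Over both clusters the 8 arms detected nowhere had deposited intensities from −28.5 to 9.47, at background. miR-106a-5p was not analysed here.

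**Figure D1:**
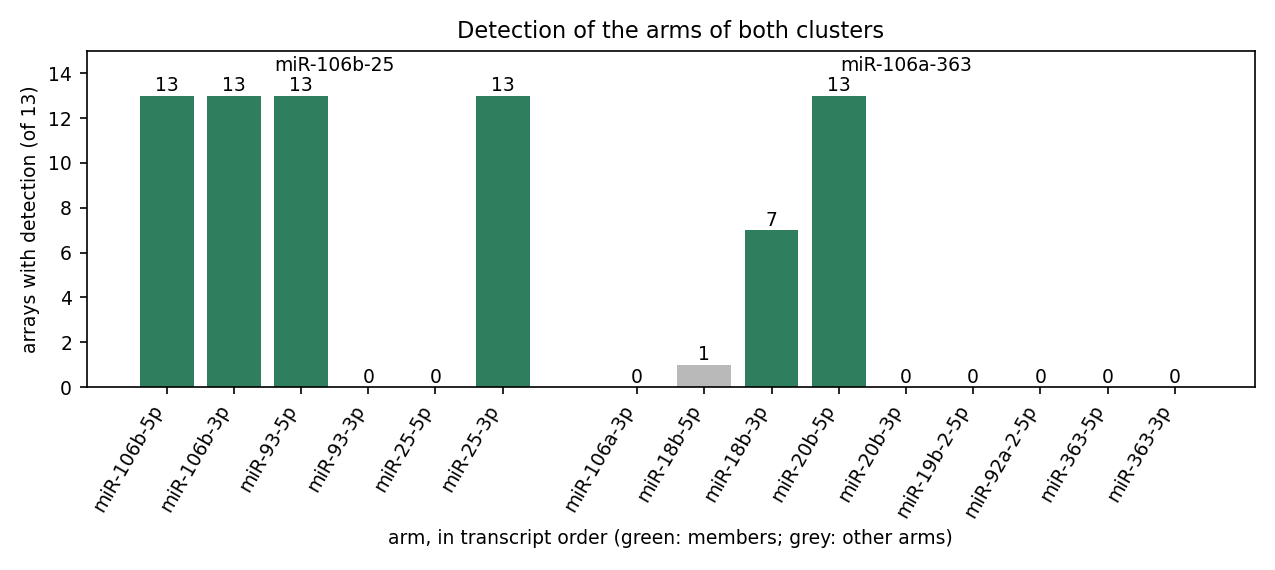
Number of arrays (of 13) on which the scanner software marked each arm as detected, in transcript order within each cluster; green bars are the 6 members and grey bars the other arms on the array. In miR-106a-363 only miR-20b-5p reached 13 arrays and miR-18b-3p reached 7.

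miR-106b-5p, a guide strand with the AAAGUGC seed, was lowest at 10.36, had a median of 10.99 and was highest at 11.22 in the 6 wild-type tumours. In the 7 deficient tumours the lowest was 10.92, the median 11.12 and the highest 11.65. Wild-type replicates 3 and 4 lay below every deficient tumour, and deficient replicate 1 lay above every wild-type tumour, while the other 10 tumours overlapped. Its 2 probes, each of 20 spots, followed each other across tumours (r = 0.963, n = 13), and the standard error of the spot mean of the brighter one was 0.014 on the log2 scale. That error leaves out labelling, hybridisation and scaling, which were not measured apart from the tumours.

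miR-93-5p, which shares that seed and transcript, ran from 9.99 over a median of 10.59 to 11.05 in wild-type tumours. In deficient tumours it ran from 10.57 over a median of 10.77 to 11.23. Again wild-type replicates 3 and 4, at 9.99 and 10.02, were the lowest and deficient replicate 1 the highest.

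miR-25-3p, the AUUGCAC guide of the last hairpin of the cluster, ran from 10.16 over 10.88 to 11.11 in wild-type tumours. In deficient tumours it ran from 10.90 over 11.05 to 11.51. Here 3 of 6 wild-type tumours lay below every deficient tumour and 3 of 7 deficient tumours above every wild-type tumour.

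miR-106b-3p, the partner arm of miR-106b-5p, lay close to background. It ran from 4.93 over a median of 5.31 to 6.01 in wild-type tumours and from 5.05 over 5.71 to 5.97 in deficient tumours, so that the groups overlapped almost fully. Of its 4 probes 1 carried the signal, with 36.6 to 80.4 deposited units, while the other 3 lay between −9.69 and 5.81 in every tumour. The spots of that probe varied by a median CV of 10.1%, against 4.29% for the brighter probe of miR-106b-5p.

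miR-20b-5p, the guide of the third hairpin of miR-106a-363, ran from 9.95 over 10.47 to 10.92 in wild-type tumours and from 10.41 over 10.57 to 11.07 in deficient tumours. Wild-type replicate 4 was lowest and deficient replicate 1 highest, as for miR-106b-5p. Wild-type replicate 3, which had a low level of the miR-106b-25 guides, was at 10.37 and equal to wild-type replicate 6 to 2 decimals. Its 2 probes followed each other with r = 0.932 (n = 13).

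miR-18b-3p, a 3′ arm whose partner is the miR-18 guide, ran from 4.22 over 5.11 to 5.97 in wild-type tumours and from 4.21 over 5.01 to 5.43 in deficient tumours. It was highest in wild-type replicate 4, where miR-106b-5p and miR-20b-5p were lowest. Of its 13 values 6 came from arrays on which it was not detected, and the spots of its brighter probe varied by a median CV of 24.8%.

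**Figure D2:**
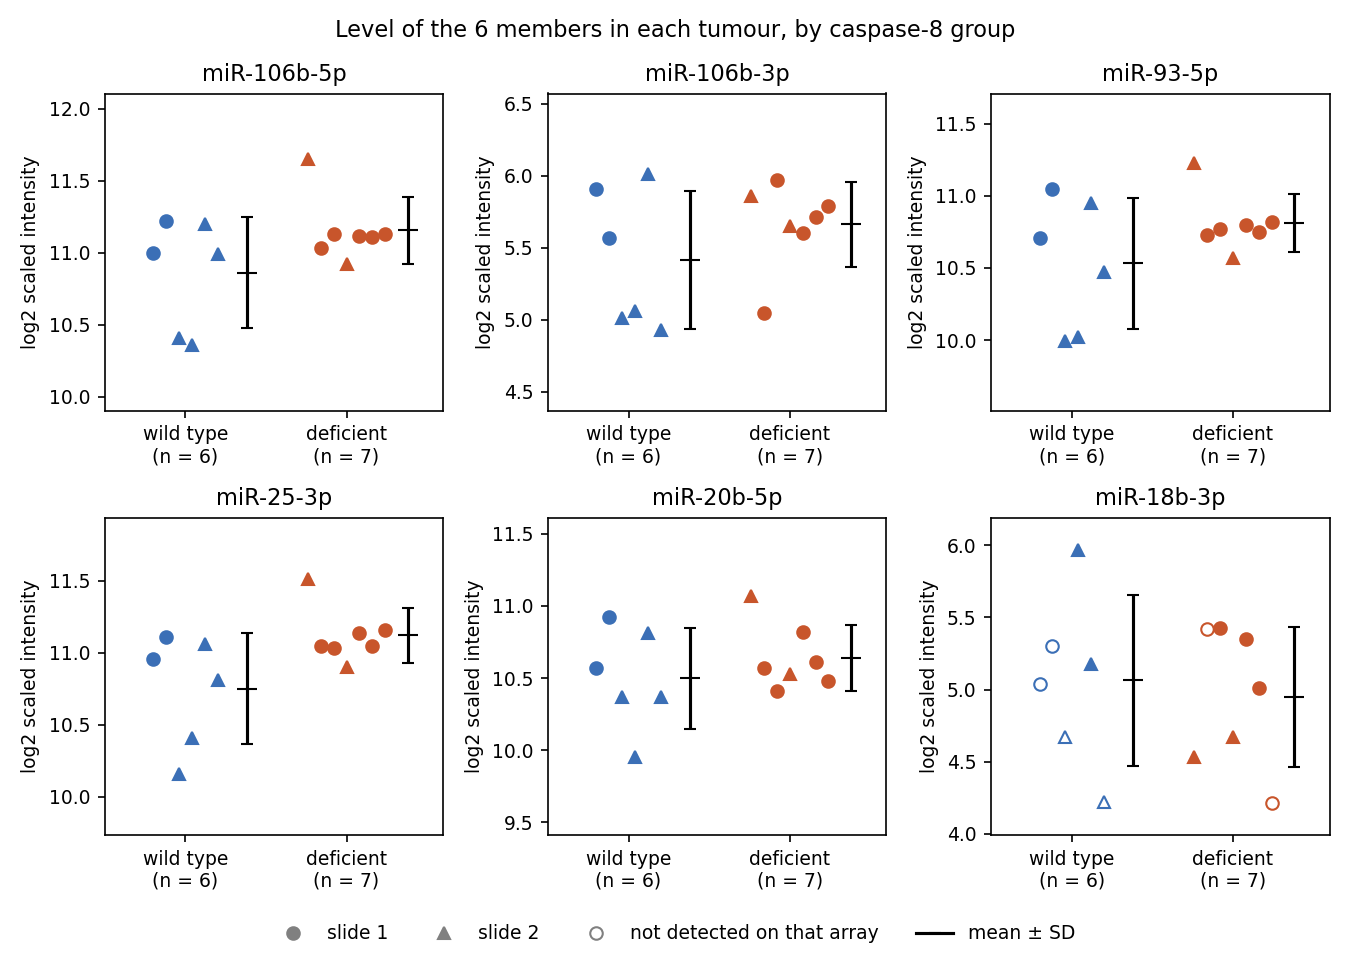
Log2 scaled intensity of each member in the 6 wild-type (blue) and 7 deficient (orange) tumours; circles are arrays of slide 1, triangles arrays of slide 2, open symbols arrays without detection, and bars the mean ± SD of a group. All panels span the same range; the groups overlap in every panel, and wild-type replicates 3 and 4 (10.41 and 10.36 for miR-106b-5p) lie apart at the low end of the miR-106b-25 guides.

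The guides varied less over the tumours than most tested miRNAs. Over the 13 tumours the SD was 0.33 for miR-106b-5p, 0.36 for miR-93-5p, 0.34 for miR-25-3p and 0.29 for miR-20b-5p, where the median of the 419 tested miRNAs was 0.53. miR-20b-5p had a smaller SD than all but 12.6% of them. The dim members miR-106b-3p and miR-18b-3p had SDs of 0.39 and 0.52. The 419 include miRNAs that not every array detected, and miRNAs of like brightness were not compared apart. From the lowest to the highest tumour the levels differed 2.46-fold for miR-106b-5p, 2.36-fold for miR-93-5p, 2.54-fold for miR-25-3p and 2.18-fold for miR-20b-5p. The SD was 0.38 in wild-type and 0.23 in deficient tumours for miR-106b-5p, and 0.46 and 0.20 for miR-93-5p; the difference between these spreads was not tested.

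The central comparison asks whether the members differ between tumours with wild-type caspase-8 and deficient tumours with metastasis. Means of 5 of the 6 members were higher in deficient tumours, but none passed the test. Members of a cluster share a transcript, so they are not independent of each other. Over all 419 miRNAs 54.2% had a higher and 45.8% a lower mean in deficient tumours. The split moved with the scaling: without scaling 73% of all miRNAs and 6 members were higher, and with normexp, another background correction, 37.7% and 4 members. Array weights left 4 members higher. The sizes moved too: without scaling the differences were 0.56 for miR-25-3p, 0.49 for miR-106b-5p, 0.47 for miR-93-5p, 0.44 for miR-106b-3p and 0.34 for miR-20b-5p. With array weights they were 0.19, 0.14, 0.08, 0.08 and −0.01 in the same order. For the dim miR-106b-3p the mean of log2 probe levels gave 0.05 and the series matrix 0.13. At an adjusted p under 0.05 limma called 0 of the 6 members and 0 of the 419 miRNAs (0%), and at an unadjusted p under 0.05 it called 0 members and 16 miRNAs (3.82%). Each difference below is the deficient mean less the wild-type mean in log2 units, from limma with Benjamini-Hochberg adjustment over the 419 miRNAs.

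miR-25-3p had the largest difference among the members, 10.75 ± 0.38 (SD, n = 6) against 11.12 ± 0.19 (SD, n = 7). It differed by 0.37 (SE 0.19, limma adjusted p = 0.589), a 1.29-fold ratio with a 95% interval from 0.975-fold to 1.71-fold. Its probes followed each other less closely across tumours (r = 0.791) than those of miR-106b-5p (0.963) or miR-20b-5p (0.932). The brighter probe of miR-25-3p differed by 0.41 between the groups and the dimmer one by 0.21. The brighter and dimmer probes gave 0.31 and 0.26 for miR-106b-5p, and 0.29 and 0.24 for miR-93-5p. The first rank of miR-25-3p thus rested on its brighter probe.

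miR-106b-5p was at 10.86 ± 0.38 (SD, n = 6) and 11.16 ± 0.23 (SD, n = 7), a difference of 0.29 (SE 0.20, limma adjusted p = 0.641, 95% interval −0.13 to 0.71). miR-93-5p was at 10.53 ± 0.46 (SD, n = 6) and 10.81 ± 0.20 (SD, n = 7), a difference of 0.28 (SE 0.21, limma adjusted p = 0.644). Their arm partner and neighbour miR-106b-3p differed by 0.25 (SE 0.23, limma adjusted p = 0.672).

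Of the 2 members from the X chromosome, miR-20b-5p was at 10.50 ± 0.35 (SD, n = 6) and 10.64 ± 0.23 (SD, n = 7), a difference of 0.14 (SE 0.19, limma adjusted p = 0.789). Its 95% interval, 0.834-fold to 1.46-fold, leaves room for a change in either direction. miR-18b-3p differed by −0.12 (SE 0.29, limma adjusted p = 0.915).

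The differences were not alike on the 2 slides. Within slide 2, which held 4 wild-type and 2 deficient tumours, they were 0.54 for miR-106b-5p, 0.50 for miR-106b-3p, 0.54 for miR-93-5p, 0.59 for miR-25-3p and 0.43 for miR-20b-5p. Within slide 1, which held 2 wild-type and 5 deficient tumours, they were −0.01, −0.12, −0.10, 0.06 and −0.17 in the same order. For miR-18b-3p they were −0.41 within slide 2 and −0.09 within slide 1. The 2 deficient tumours of slide 2, replicates 1 and 4, lay apart. In them miR-106b-5p was at 11.65 and 10.92 and miR-20b-5p at 11.07 and 10.53. The difference between the slides itself did not pass for any member (limma adjusted p = 0.868 for 5 members and 0.924 for miR-18b-3p), and with slide as a block the group differences were 0.26, 0.18, 0.21, 0.31 and 0.12, with −0.24 for miR-18b-3p.

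**Figure D3:**
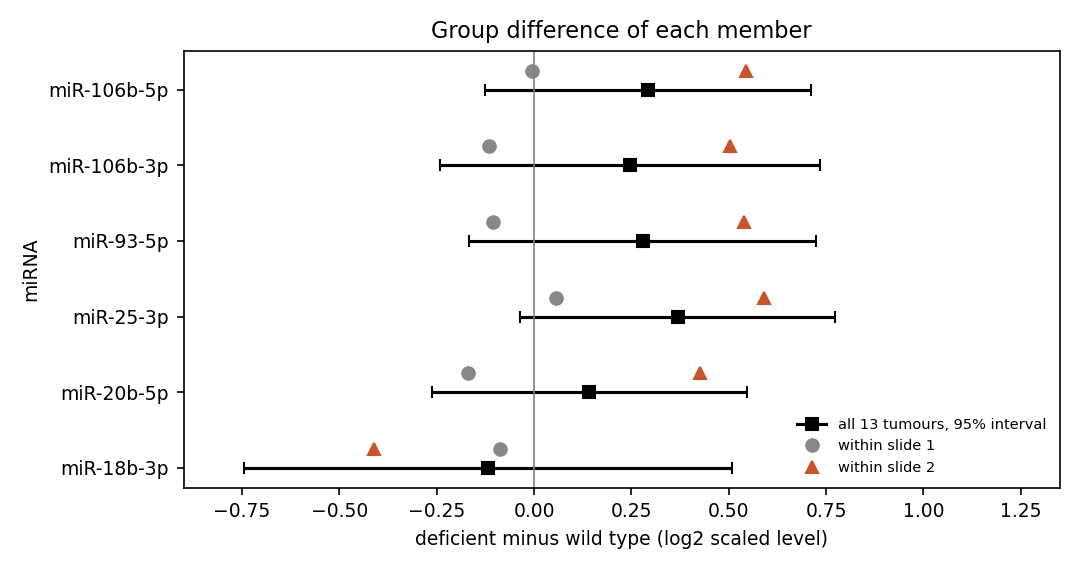
Difference of each member between deficient and wild-type tumours on the log2 scale, with its 95% interval from limma over all 13 tumours (black squares), and the difference of means within slide 1 (grey circles) and slide 2 (orange triangles). Every interval holds 0, and for 5 members the value within slide 2, such as 0.59 for miR-25-3p, lies to the right of that within slide 1.

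Some differences rested on 1 tumour. Without wild-type replicate 4 miR-106b-5p differed by 0.19, miR-93-5p by 0.18, miR-20b-5p by 0.03 and miR-18b-3p by 0.06, the last a turn in sign that the loss of deficient replicate 7 also gave (0.00388). Without wild-type replicate 3 miR-25-3p differed by 0.25 and miR-93-5p by 0.17, and without wild-type replicate 6 miR-106b-3p differed by 0.15 and miR-18b-3p by −0.29. Without wild-type replicate 2 miR-20b-5p differed by 0.23. Leaving out deficient replicate 1 gave 0.21 for miR-106b-5p, 0.21 for miR-93-5p, 0.30 for miR-25-3p and 0.07 for miR-20b-5p.

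Ratios within an array do not depend on how arrays are scaled, and 5 were fixed for comparison: between the arms of the miR-106b hairpin, between hairpins of one transcript, and between clusters. None passed the test between the groups. The log2 ratio of miR-106b-5p to miR-20b-5p was higher by 0.15 in deficient tumours, where it was 0.52 ± 0.15 (SD, n = 7), than in wild-type tumours at 0.36 ± 0.19 (SD, n = 6; exact permutation p = 0.135, adjusted p = 0.243 over 5 ratios). The ratio of miR-106b-5p to miR-17-5p was higher by 0.19 (exact permutation p = 0.146, adjusted p = 0.243), and that of miR-93-5p to miR-25-3p lower, with −0.09 (exact permutation p = 0.109, adjusted p = 0.243). For the 5p and 3p arms of miR-106b the difference was 0.05, and for miR-106b-5p against miR-93-5p it was 0.01 (exact permutation p = 0.796 and 0.785, both adjusted p = 0.796). The arm ratio depended on the processing, with 0.34 under normexp background (exact permutation adjusted p = 0.181), 0.12 in the deposited series matrix and 0.11 within slide 1. On slide 1 the ratio of miR-106b-5p to miR-93-5p differed by 0.10 and that of miR-93-5p to miR-25-3p by −0.16; in the series matrix the ratio of miR-106b-5p to miR-20b-5p differed by 0.09. The arm ratio and the ratio to miR-93-5p changed sign with single tumours left out: for the arm ratio, dropping deficient replicate 2 gave −0.034, dropping deficient replicate 1 gave −0.0034, and dropping wild-type replicate 1 or 5 gave −0.026 or −0.0051. For the ratio to miR-93-5p, dropping wild-type replicate 2 or 5 gave −0.017 or −0.003.

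**Figure D4:**
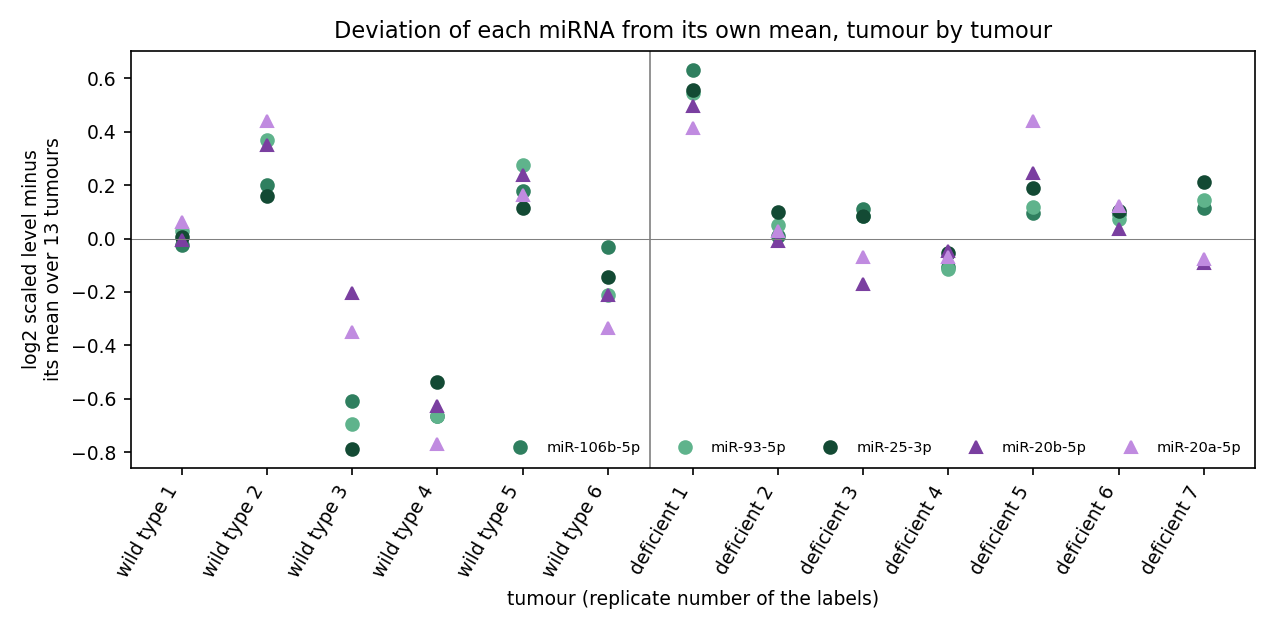
Deviation of 5 miRNAs from their own mean over the 13 tumours on the log2 scale, by tumour; green circles are the miR-106b-25 guides, purple triangles are miR-20b-5p and its close relative miR-20a-5p, and the grey line parts the groups. The 3 green symbols lie nearly on each other in most tumours (SD of the log2 ratio of miR-106b-5p to miR-93-5p, 0.09), and in wild-type replicate 3 the purple symbols lie above the green ones.

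The 3 guides of miR-106b-25 followed each other across tumours: r was 0.971 for miR-106b-5p and miR-93-5p, 0.963 for miR-106b-5p and miR-25-3p and 0.962 for miR-93-5p and miR-25-3p (n = 13 tumours). Spearman's rho was 0.984, 0.901 and 0.94, and every permutation p was at most 4e-05, with adjusted p of 5e-05 to 0.000133 over the 10 pairs of members detected everywhere. The smallest p that 100000 permutations can give is 1.0e-05. Among all pairs of the 294 miRNAs detected everywhere the median r was 0.02, and 0.75% of the 43071 pairs reached 0.9.

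Without wild-type replicates 3 and 4, the tumours farthest from the median, these 3 correlations were 0.903, 0.925 and 0.894 (permutation p = 6e-05, 0.00069 and 0.00022, n = 11). Within slide 2 they were 0.982, 0.974 and 0.976 (n = 6, exact permutation p = 0.0111, 0.0111 and 0.00278), and within slide 1, which held neither the lowest nor the highest tumour of these guides, 0.859, 0.665 and 0.531 (n = 7, exact permutation p = 0.00198, 0.118 and 0.201). On slide 1 the relation of miR-25-3p to the other 2 thus did not pass.

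The arm partner followed less closely. Among all pairs of the 294 miRNAs detected everywhere the 95th percentile of r was 0.73. Each r of miR-106b-3p with a member over the 13 tumours, as scaled here, lay below that. miR-106b-3p correlated with miR-106b-5p with r = 0.647 (permutation p = 0.0134, adjusted p = 0.0149) and rho = 0.571 (permutation p = 0.0453, adjusted p = 0.0566, n = 13). Without wild-type replicates 3 and 4 r was 0.37 (permutation p = 0.25, n = 11), within slide 1 it was 0.144 (n = 7), and with normexp background −0.11. Leaving out the farthest tumours also narrows the range of levels, and its part in the lower r was not tested. The correlations of miR-106b-3p with miR-93-5p and miR-25-3p were 0.704 and 0.659 (rho 0.582 and 0.478; permutation p = 0.00703 and 0.0102 for r, adjusted p = 0.01 and 0.0128; p = 0.0407 and 0.102 for rho, adjusted p = 0.0566 and 0.113). Both were below 0 within slide 1 (−0.06 and −0.19, n = 7), and without wild-type replicates 3 and 6 they were 0.593 and 0.536 (permutation p = 0.0637 and 0.113, n = 11). With miR-20b-5p r was 0.541 (rho 0.423; permutation p = 0.056 for r and 0.149 for rho, the same after adjustment), −0.31 within slide 1 (n = 7), and 0.465 without wild-type replicates 3 and 6 (permutation p = 0.155, n = 11).

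miR-20b-5p, made from another chromosome, also followed the miR-106b-25 guides. Its r was 0.842 with miR-106b-5p, 0.865 with miR-93-5p and 0.767 with miR-25-3p (permutation p = 0.00033, 8e-05 and 0.00269, adjusted p = 0.00066, 0.0002 and 0.00448, n = 13), and rho was 0.758, 0.808 and 0.786 (adjusted p = 0.00597, 0.0034 and 0.0043 by permutation). Without wild-type replicates 3 and 4 these were 0.774, 0.871 and 0.762 (permutation p = 0.00269, 0.00033 and 0.00388, n = 11). Within slide 2 they were 0.914, 0.922 and 0.843 (n = 6, exact permutation p = 0.0111, 0.0139 and 0.0389). Within slide 1 they were 0.461, 0.697 and 0.354 (n = 7, exact permutation p = 0.312, 0.12 and 0.423) and did not pass.

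For each member detected everywhere, the 3 most alike of 289 other miRNAs were named by their r over the 13 tumours, as a description. For miR-20b-5p they were miR-20a-5p (0.959), miR-17-5p (0.92) and miR-19b-3p (0.907), all of the Mir17hg cluster. The first 2 share its seed and differ from it at 2 bases each, and miR-20a-5p kept an r of 0.976 within slide 1 and 0.995 within slide 2. The SD of the log2 ratio of miR-20b-5p over the tumours was 0.11 to miR-20a-5p, 0.12 to miR-17-5p and 0.13 to miR-19b-3p. It was 0.18 to miR-106b-5p, 0.18 to miR-93-5p and 0.22 to miR-25-3p. To other guides of the Mir17hg cluster it was not smaller, with 0.21 to miR-19a-3p, 0.22 to miR-92a-3p and 0.27 to miR-18a-5p. miR-19b-3p has another sequence and seed, and can itself come from the X chromosome.

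For the miR-106b-25 guides the most alike miRNA was miR-15b-5p, a guide of the miR-15/16 family that represses cyclin transcripts, with r of 0.928 for miR-106b-5p, 0.929 for miR-93-5p and 0.907 for miR-25-3p. miR-20a-5p was next for miR-106b-5p (0.831) and miR-93-5p (0.88), followed by miR-130a-3p (0.793) and miR-18a-5p (0.833). For miR-25-3p the next were miR-9-5p (0.85) and miR-532-5p (0.805). By Spearman's rho miR-15b-5p had 0.791 with miR-106b-5p, 0.802 with miR-93-5p and 0.698 with miR-25-3p. The SD of the log2 ratio of these guides to miR-15b-5p was 0.21, 0.19 and 0.22 in that order. To miR-20a-5p it was no larger, with 0.20, 0.17 and 0.22. Within slide 1 miR-15b-5p kept an r of 0.754 with miR-106b-5p and 0.757 with miR-93-5p but 0.256 with miR-25-3p. There miR-25-3p had an r of 0.108 with miR-9-5p and 0.279 with miR-532-5p, miR-93-5p 0.615 with miR-20a-5p and 0.259 with miR-18a-5p, and miR-106b-5p 0.451 and 0.448 with miR-20a-5p and miR-130a-3p. The miRNAs most alike to miR-106b-3p were miR-379-3p (0.83), miR-130a-3p (0.821) and miR-299b-5p (0.795).

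**Figure D5:**
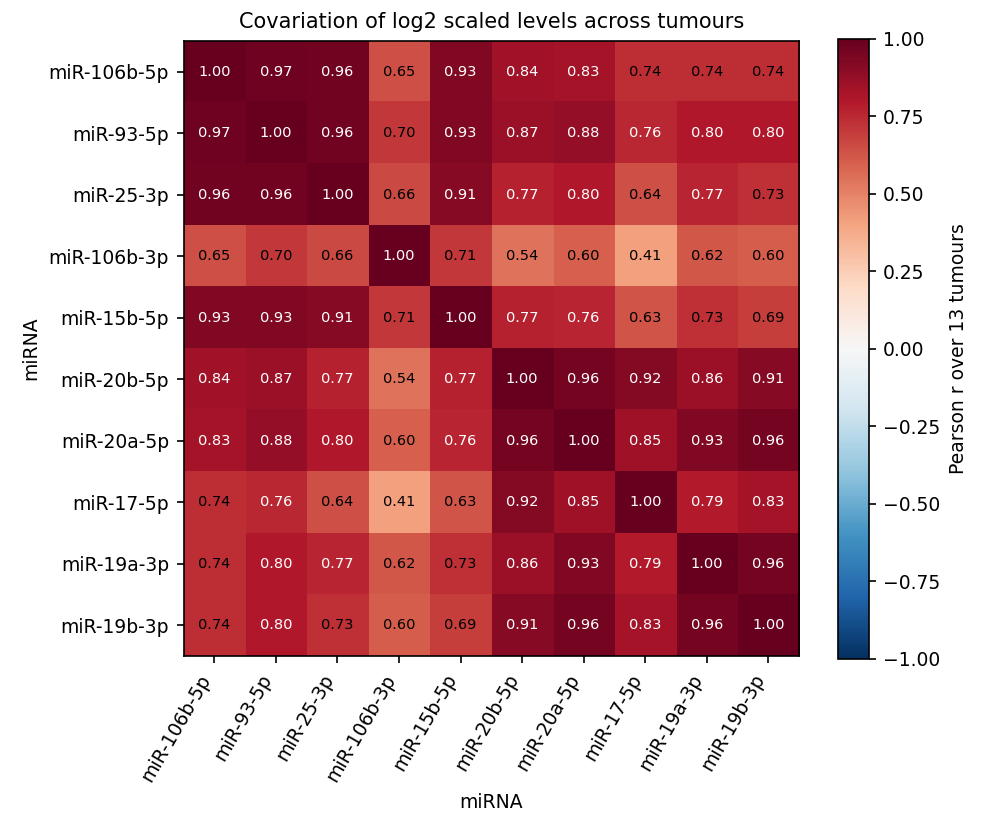
Pearson r over the 13 tumours between log2 scaled levels of the 5 members detected everywhere, miR-15b-5p and 4 guides of the Mir17hg cluster; darker red is nearer to 1. The miR-106b-25 guides and miR-15b-5p form 1 block (0.907 and above). miR-20b-5p with miR-20a-5p (0.959) lies in the block of the 4 Mir17hg guides shown, and miR-106b-3p is paler against both blocks. The Mir17hg guides miR-18a-5p and miR-92a-3p are not shown. With them miR-20b-5p had r of 0.765 and 0.657, below its 0.842 with miR-106b-5p.

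In the wider family no member passed either. Of the 12 arms of the Mir17hg cluster, 9 were tested, and all 9 had higher means in deficient tumours, against 54.2% of all tested miRNAs, with a median difference of 0.24; limma called 0 of the 9, with a smallest adjusted p of 0.589. Within slide 1, 2 of these 9 had higher means, with normexp background 7, with array weights 6 and with slide as a block 8. The members' median difference was 0.26, and that of all 419 miRNAs 0.04. miR-18a-5p, the guide of the hairpin paralogous to miR-18b, was at 10.01 ± 0.54 (SD, n = 6) and 10.45 ± 0.11 (SD, n = 7) and differed by 0.44 (SE 0.22, limma adjusted p = 0.589). miR-20a-3p, with the largest difference of the 9, was dim, at 17.9 to 85.9 deposited intensity units. It differed by 0.56 (SE 0.27, limma adjusted p = 0.589), and miR-20a-5p by 0.24 (SE 0.21, limma adjusted p = 0.668). miR-92a-3p, which shares the seed of miR-25-3p, differed by 0.11 (SE 0.16, limma adjusted p = 0.805). Of the 6 miRNAs on the array with the AUUGCAC seed, miR-25-3p and miR-92a-3p were detected in all tumours and miR-32-5p, miR-92b-3p, miR-363-3p and miR-367-3p in 0. Though never marked as detected, miR-92b-3p had 14.7 to 34.5 deposited intensity units. That range overlaps the one of miR-20a-3p, which was marked in all tumours. All 5 with the AAAGUGC seed were detected in every tumour.

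Because the miR-106b-25 guides moved together and share the Mcm7 transcript, the 300 bases around the start of Mcm7 are shown, from RefSeq (chr5:138171834-138172133, GRCm38.p6, minus strand, 250 bases before the start and 50 after). They were searched on both strands for the E-box CACGTG, to which MYC proteins bind, and for TTTNNCGC, a form of the E2F motif. Capitals mark the matches to the second.
Mcm7: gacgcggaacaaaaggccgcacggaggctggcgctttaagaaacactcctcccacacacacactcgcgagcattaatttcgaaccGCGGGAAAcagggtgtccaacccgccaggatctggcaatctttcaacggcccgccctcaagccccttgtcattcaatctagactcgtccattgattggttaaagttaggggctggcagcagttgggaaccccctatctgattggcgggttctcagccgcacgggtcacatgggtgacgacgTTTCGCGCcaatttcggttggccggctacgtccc
TTTNNCGC was found 2 times, 1 on each strand, and 5.17% of the 32851 RefSeq promoter windows of this length hold it. CACGTG was found 0 times, and 7.15% of the windows hold it. RefSeq lists a second start of Mcm7 that was not searched, and binding was not measured in these tumours.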

How the data were processed

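The deposited scanner files of 13 arrays held linear spot intensity, background-subtracted and detrended by the authors' scanner software without scaling between arrays, per the file headers. They name Feature Extraction 10.7.3.1, and the submitters' processing notes name 10.5.1.1. Detection, saturation and outlier marks are other yes or no columns, deposited per the file headers. The series matrix, also deposited, is on a log2 scale and has 1 distribution for every array; the tool behind it is not given in the sources used here. Each of its 13 columns followed its own array most closely, and it was tried as an alternative. The normexp alternative used the median spot and background signals.

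Each array had 47604 spots. Controls (2164) and outlier spots (1438 to 2052 per array) were left out, and 0 spots were saturated. Spots were averaged per probe, probes summed per miRNA, brought to a common 75th percentile over the 294 miRNAs detected everywhere, floored at 17.2 (4.1 on the log2 scale, percentile 1 of detected values) and logged. Detection on 6 or more arrays left 419 mouse miRNAs for limma 3.58.1 (R 4.3.3), two-sided, threshold 0.05. Ratios were tested by two-sided exact permutation over 1716 splits of the tumours, correlations by 100000 permutations, both on Python 3.11.15 with scipy 1.17.1. The tests were checked on simulated data.

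Members, lists and tests were chosen with earlier results of these data known. Named miRNAs are the members, the wider family and, for each member detected everywhere, the 3 with the highest r. miR-486-5p, listed as an erythroid marker, was not analysed here.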

Additional observations from a re-analysis of the deposited data

Results flagged for a closer look

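Single tumours stood apart within the deficient group for 3 members, each by a gap that was large for a group of 7. Chance flags about 1 in 20 groups, and 22 were checked. Deficient replicate 1 was the highest of the deficient tumours for miR-106b-5p, at 11.65 against 11.13 for the next. The same tumour was the highest for miR-93-5p, at 11.23 against 10.82. Deficient replicate 2 was the lowest for miR-106b-3p, at 5.05 against 5.60, while its miR-106b-5p lay among the other deficient tumours at 11.03.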

How the results depend on the processing

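The count of called miRNAs was 0 under each of 15 other settings and without each tumour. Without scaling the median difference of all tested miRNAs moved from 0.04 to 0.23 and 73% had higher means in deficient tumours, and with normexp background it was −0.06 and 37.7%. Of the members, miR-25-3p kept its sign throughout. Signs turned for miR-18b-3p without scaling (0.0747) and with the replicate block, which leaves out deficient replicate 7 (0.00388), for miR-106b-3p with normexp background (−0.0814) and within slide 1 (−0.116), for miR-20b-5p with array weights (−0.00893) and within slide 1 (−0.17), and within slide 1 for miR-106b-5p (−0.00527) and miR-93-5p (−0.104). With 1 tumour left out the differences ranged from 0.192 to 0.365 for miR-106b-5p, 0.15 to 0.366 for miR-106b-3p, 0.17 to 0.382 for miR-93-5p, 0.251 to 0.44 for miR-25-3p, 0.0321 to 0.227 for miR-20b-5p and −0.288 to 0.0624 for miR-18b-3p. The ratio of the arms of miR-106b ranged from −0.034 to 0.169, of miR-106b-5p to miR-93-5p from −0.0173 to 0.0521, to miR-20b-5p from 0.0863 to 0.203 and to miR-17-5p from 0.104 to 0.239, and of miR-93-5p to miR-25-3p from −0.125 to −0.0577. Correlations of miR-106b-3p depended on the background: with normexp they were −0.107 with miR-106b-5p, −0.0346 with miR-25-3p and 0.127 with miR-93-5p. With miR-20b-5p the correlation passed without scaling (0.778), after quantile normalization (0.689) and in the series matrix (0.788). The other 6 correlations passed under all 4 alternatives. With 4 times the floor miR-106b-3p and miR-18b-3p had no value, being at the floor. The causes were not tested. The brightest probe alone, added after seeing the data, turned no sign.

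Tumours share only a replicate number: same-numbered deviations correlated between −0.22 and 0.194, and 0 wild-type and 1 deficient tumours correlated best with their own number. The replicate block leaves out deficient replicate 7, which has no partner. With it 0 miRNAs were called and 63 had an unadjusted p under 0.05, against 37 without the block on the same 12 tumours and 16 on all 13; miR-106b-5p differed by 0.297 on those 12 with or without the block.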
